A study of Arabidopsis thaliana with 12 samples.

Results

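Leaves of an Arabidopsis thaliana line that carries wild-type EDS1, labelled w.tEDS1, were compared with leaves of the reference accession Col-0 at 4 h after bacterial infiltration. The comparison was made of all libraries with these 2 labels, 3 of each, which are 6 of the 12 libraries of the series; the others came from the mutant eds1-2 and from a line with the EDS1 variant R493A. All plants were 4 weeks old and had received Pst AvrRps4, Pseudomonas syringae pv. tomato delivering the effector AvrRps4, from a syringe at an OD600 of 0.005. Each library was poly(A) RNA from a pool of 4 plants, which the labels call a biological replicate. The labels give neither the genetic background of w.tEDS1, nor the promoter of its EDS1 gene, nor whether it is 1 line or several. Mock-treated samples were not used here, so the values describe infected leaves and not the response to infection. Of the 32678 genes in the count table, 18770 had enough reads to be tested.

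EDS1 is a lipase-like protein that relays signals from immune receptors of the TIR class, among them the pair RPS4 and RRS1, which recognises AvrRps4. It acts as a heterodimer with its relatives PAD4 or SAG101 and with helper receptors, and the PAD4 branch promotes synthesis of salicylic acid and N-hydroxypipecolic acid in infected leaves. A line with wild-type EDS1 serves as the control for a line with an altered EDS1, so the question addressed by the comparison with Col-0 is how far the leaf transcriptome of that control departs from the accession.

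The gene counts summed to between 19760162 and 23677078 in Col-0 and between 20472553 and 22133552 in w.tEDS1. The Col-0 libraries stood apart from one another. Replicates 1 and 2 of Col-0 were sequenced on a lane that held no other library, whereas Col-0 replicate 3 shared its lane with all 3 w.tEDS1 libraries. The first principal component of all 12 libraries took 41.7% of the variance, and on it the Col-0 libraries had scores of −62.9, −92.6 and −0.307 for replicates 1 to 3. The w.tEDS1 libraries had scores of −1.68, 20.4 and 14.2, next to Col-0 replicate 3. The median SD of log2 expression over genes was 0.307 in Col-0 and 0.192 in w.tEDS1. Values of w.tEDS1 against Col-0 replicate 3 alone, all from the shared lane, are therefore given beside the results. Levels are in CPM, read counts divided by the scaled library total and multiplied by 1000000. The summed level of 28 light-harvesting and photosystem genes was 49140 to 86054 CPM over the 6 libraries. Of 9 root markers 3 had enough reads to be tested, and the 9 summed to 12.5 to 26.4 CPM over the 6 libraries. PLT1, PLT2, PHT1;2, EXPA7 and RHD6 were at 0 in all 6 libraries, so the other members made up this sum.

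Few genes passed the threshold for a difference between w.tEDS1 and Col-0. A gene was called when its adjusted p was under 0.05 in edgeR's quasi-likelihood test with Benjamini-Hochberg adjustment over all tested genes, and every adjusted p below comes from that test. By this rule 204 genes were called, 1.09% of those tested, of which 95 were higher in w.tEDS1 (0.506%) and 109 lower (0.581%). EDS1 itself and a set of nuclear genes for plastid proteins were among the higher genes, and a block of genes on chromosome 3, with receptor genes and HR4 in it, held most of the lower ones. No gene of salicylic acid synthesis or response was called. The median log2 fold change over all tested genes was −0.01, and a log2 fold change of 1 or more in size was found for 109 of the called genes, 33 of them higher and 76 lower. In all 204 the lowest library of one group lay above the highest of the other, as it did in 22.8% of all tested genes. Where groups are said below to be apart in a called gene, this describes its values and adds no support to the call. An unadjusted p under 0.05 in the edgeR test was found for 4259 of the 18770 tested genes. The count of calls therefore does not measure how many genes differ, and such counts in the lists below are to be read against this number. DESeq2, another test used below, called many more genes than edgeR, as given in the closing section. With 1 library left out, the count of calls ranged from 38 to 2701 (the case of w.tEDS1 replicate 2 is not listed singly). It was 47 without Col-0 replicate 1, 88 without Col-0 replicate 2 and 2701 without Col-0 replicate 3. The count was 56 without w.tEDS1 replicate 1 and 38 without w.tEDS1 replicate 3. It was 39 when Col-0 replicate 3 was the only Col-0 library, in a fit where that lone library is assumed to vary like the other groups.

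EDS1 (AT3G48090; TAIR10.1 chromosome 3, 17755329 to 17758147, minus strand) was higher in w.tEDS1. Its level was 32.5, 72.0 and 23.2 CPM in Col-0 replicates 1 to 3 and 124, 196 and 111 CPM in w.tEDS1. Every w.tEDS1 library was above every Col-0 library, and in both groups replicate 2 was highest. The log2 fold change was 1.76 (SE 0.37, 95% interval 0.95 to 2.56, adjusted p = 0.0498), close to the threshold. The call was lost when Col-0 replicate 1 or any w.tEDS1 library was left out, with adjusted p between 0.0952 and 0.150, and it held without Col-0 replicate 2 or 3. Against Col-0 replicate 3 alone the log2 difference was 2.64. The mean of eds1-2 was 3.94 CPM and that of R493A 24.7 CPM.

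EDS1B (AT3G48080), the near-identical neighbour of EDS1 on the same strand (17752463 to 17755190), had 13.3, 15.4 and 1.24 CPM in Col-0 and 1.16, 2.35 and 2.53 CPM in w.tEDS1. The groups overlapped, since Col-0 replicate 3 was in the range of w.tEDS1. The log2 fold change was −2.31 (SE 0.72) and was not called (adjusted p = 0.108). It was called lower without Col-0 replicate 3 (−2.82, adjusted p = 0.00590), and against that library alone the difference was 0.70. The deposited table keeps alignments that are not unique in a summary entry apart from the genes, and how reads of near-identical copies were treated is not stated, so the levels of EDS1 and EDS1B are uncertain. Reads of a transgene and of the resident gene cannot be told apart.

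The partners of EDS1 and the genes downstream of it were not called, and their spread in Col-0 was wide. PAD4 had 48.6, 302 and 27.2 CPM in Col-0 and 55.0, 75.7 and 42.5 CPM in w.tEDS1. Col-0 replicate 2 was far above all others, and Col-0 replicate 3 was the lowest of the 6. The log2 fold change of PAD4 was −1.12 with a 95% interval of −2.59 to 0.34 (adjusted p = 0.331), and it was 0.60 without Col-0 replicate 2 and 1.09 against Col-0 replicate 3 alone. SAG101, the other partner, had 33.5, 56.8 and 29.4 CPM in Col-0 and 29.0, 32.3 and 30.1 CPM in w.tEDS1, which overlapped.

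ICS1, the isochorismate synthase of salicylic acid synthesis, had 42.1, 279 and 17.7 CPM in Col-0 and 47.0, 64.8 and 30.4 CPM in w.tEDS1. The same Col-0 library was highest and the same one lowest as for PAD4. Its log2 fold change was −1.25 (interval −2.86 to 0.35, adjusted p = 0.324) and was 0.66 without Col-0 replicate 2 and 1.43 against Col-0 replicate 3 alone. FMO1, which makes N-hydroxypipecolic acid, had 4.33, 27.6 and 1.19 CPM in Col-0 and 1.45, 2.05 and 3.37 CPM in w.tEDS1 (log2 fold change −2.27, SE 0.85, adjusted p = 0.156). The value for FMO1 was −0.29 without Col-0 replicate 2 and 0.94 against Col-0 replicate 3 alone, and it was called without Col-0 replicate 3 (−2.80, adjusted p = 0.0248). PR1, a secreted antimicrobial protein and a marker of salicylic acid, had 23.7, 3.02 and 0 CPM in Col-0 and 0.241, 0.740 and 26.3 CPM in w.tEDS1. Its high library differed within each group, and the interval of its log2 fold change, −3.44 to 3.48, spanned both directions. Against Col-0 replicate 3 alone its difference was 10.6, a value without a firm size since that library was at 0 CPM. WRKY70, a transcription factor of the salicylic acid branch, had 379.8, 298 and 196 CPM in Col-0 and 153, 323 and 205 CPM in w.tEDS1 (log2 fold change −0.36, adjusted p = 0.507, interval −1.05 to 0.33). Its difference was 0.22 against Col-0 replicate 3 alone. The groups overlapped for WRKY70 too.

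**Figure D1:**
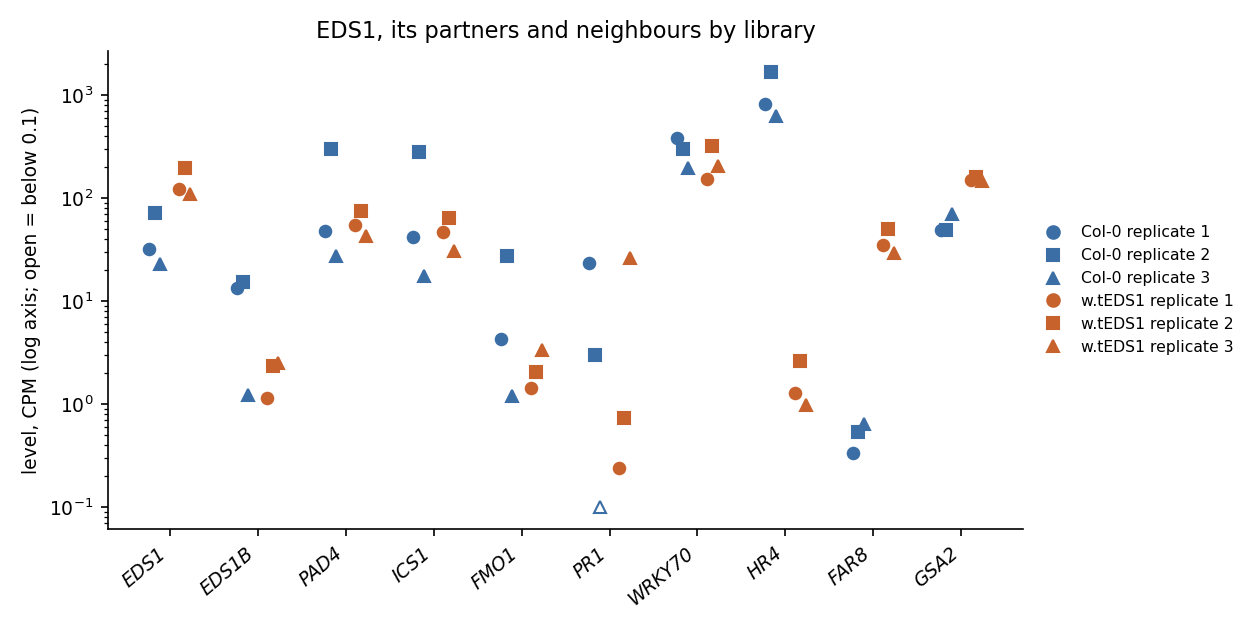
Level of EDS1, its relatives, genes downstream of it and genes near it in each library of Col-0 and w.tEDS1 (TMM-scaled CPM, log axis; points are libraries, open where the level is below 0.1 CPM). EDS1 lies between 111 and 196 CPM in w.tEDS1 and between 23.2 and 72.0 CPM in Col-0, PAD4 and ICS1 are highest in Col-0 replicate 2, at 302 and 279 CPM, and HR4 and FAR8 are far apart between the groups.

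Over the list of 15 tested genes for salicylic and pipecolic acid metabolism, 0 were called by edgeR, 6 had an unadjusted p under 0.05 and DESeq2 called 4 lower; 14 had a negative log2 fold change and the median was −1.02. The median of the list, relative to the mean of each gene, was 0.41, 1.18 and −0.83 on the log2 scale in Col-0 replicates 1 to 3 and −0.36, −0.11 and −0.50 in w.tEDS1. The w.tEDS1 libraries thus lay between the Col-0 libraries, and against Col-0 replicate 3 alone the list's median difference was 0.41. Of 22 salicylic acid response genes, 0 were called by edgeR and 0 by DESeq2, 2 had an unadjusted p under 0.05, 18 were negative and the median was −0.36, which was 0.47 against Col-0 replicate 3 alone. A direct comparison of w.tEDS1 with eds1-2, which shares the w.tEDS1 libraries, gave a median of 1.23 for the metabolism list and 2.18 for the response list. The same lists were −2.62 and −2.71 in eds1-2 against Col-0, and that comparison shares the Col-0 libraries. In that direct comparison 14 genes were called, 0.0746% of those tested and all higher in w.tEDS1. WRKY70 was one of them, with a mean of 22.3 CPM in eds1-2 and a log2 difference of 3.34 (adjusted p = 0.00742).

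On chromosome 3 the called genes lay densely around EDS1. Within 2 Mb of the start of EDS1, counted by gene midpoints, 68 of 645 tested genes were called (10.5%), of which 12 were higher with a median log2 fold change of 1.88 and 56 lower with a median of −1.60. In the rest of the genome 136 of 18125 were called (0.75%). The other chromosomes had between 0.588% and 0.896% of their tested genes called, and chromosome 3 had 2.72%. The block was not centred on EDS1. In the 1 Mb of lower coordinates next to EDS1 17.7% of tested genes were called, and in the 1 Mb before that 19.8%. On the side of higher coordinates the shares were 7.26% and 4.17%. Between 7 and 2 Mb before EDS1, across the gene-poor centromeric part of the chromosome, 12 of 114 were called and 10 of these were lower. Of these, the 1 Mb next to the 2 Mb limit held 8 called among 30 tested genes (26.7%), all lower. The 2 Mb limit thus cuts through a dense stretch, and the counts for the rest of the genome include these genes. With 1 library left out, the counts within 2 Mb ranged from 27 to 172. They were 32, 33 and 27 without Col-0 replicate 1, w.tEDS1 replicate 1 and w.tEDS1 replicate 3, and 172 without Col-0 replicate 3. The cases of Col-0 replicate 2 and w.tEDS1 replicate 2 are not listed singly.

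**Figure D2:**
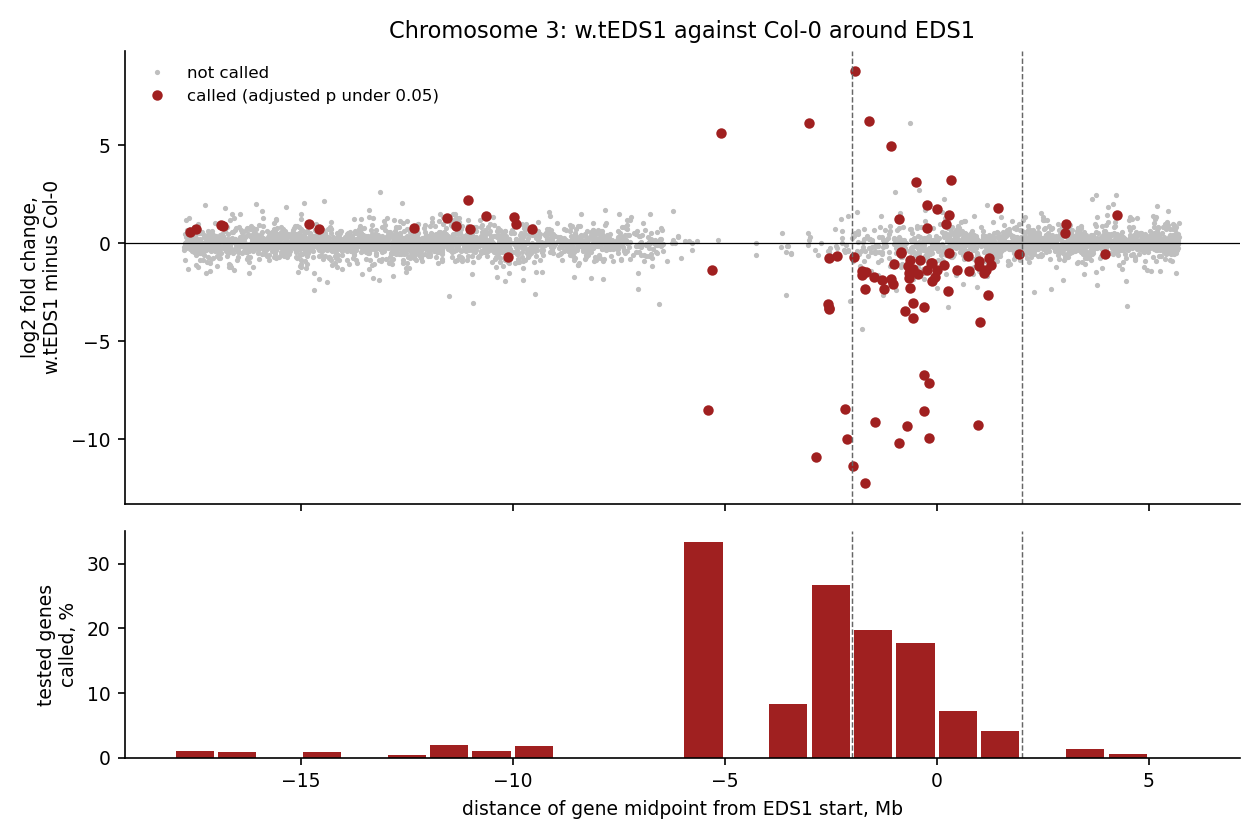
Top, log2 fold change of w.tEDS1 against Col-0 for tested genes of chromosome 3 by the distance of the gene's midpoint from the start of EDS1 in Mb, with called genes in red; bottom, the percent of tested genes called in bins of 1 Mb, with dashed lines 2 Mb either side. Between the lines 68 genes are called, 56 lower and 12 higher, and the called genes reach further out on the side of lower coordinates.

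Several genes of this block were almost without reads in w.tEDS1. HR4 (AT3G50480), 1 of 4 homologs of the RPW8 mildew resistance genes, had 817, 1654 and 631 CPM in Col-0 and 1.3, 2.61 and 0.983 CPM in w.tEDS1. It was high in every Col-0 library and near 0 in every w.tEDS1 library, a log2 fold change of −9.29 (SE 0.54, adjusted p = 8.13e-06). The means of eds1-2 and R493A were also low, at 0.641 and 0.684 CPM. The uncharacterized AT3G44430 had 1779 reads over the Col-0 libraries and 0 in w.tEDS1, which, with a floor of 3 counts over a group, is at least 600.5-fold lower. AT3G43955, annotated as a pseudogene, and AT3G44740 were at 0 in w.tEDS1 as well, against 976 and 202 reads in Col-0. These limits cover counting error only. CRK4, a cysteine-rich receptor-like kinase, had 1616 reads in Col-0 and 1 in w.tEDS1, a ratio of 1630 with a 95% counting interval of 292 to 64428. AT3G47680, a predicted DNA-binding protein, had 1331 reads against 1, and AT3G46370, a leucine-rich repeat kinase, 870 against 1. The call for CRK4 was lost when any w.tEDS1 library was left out, with adjusted p up to 0.0839, while HR4, AT3G44430, AT3G47680 and AT3G46370 were called in each of the 16 alternatives tried.

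RPP1, CML41 and other genes of the block were lower but kept clear levels in w.tEDS1. RPP1, a TIR-class receptor for a downy mildew effector, had 64.3, 108 and 57.0 CPM in Col-0 and 26.9, 32.0 and 24.5 CPM in w.tEDS1 (log2 fold change −1.46, SE 0.23, adjusted p = 0.0137). The highest w.tEDS1 library was well below the lowest Col-0 library. RPP13, a coiled-coil receptor also for downy mildew and named here after its values were seen, had 34.4, 40.8 and 36.1 CPM against 5.70, 10.3 and 6.74 CPM. RPP1 and RPP13 belong to families of similar copies, so their counts are uncertain. CML41, a calmodulin-like calcium sensor, had 78.5, 77.8 and 49.0 CPM in Col-0 and 21.6, 28.4 and 21.3 CPM in w.tEDS1 (log2 fold change −1.52, SE 0.23, adjusted p = 0.0125), without overlap. NIT1, a nitrilase named after its values were seen, fell from 2307, 1508 and 1602 CPM to 591, 566 and 610.1 CPM. The call for CML41 was lost without Col-0 replicate 1, w.tEDS1 replicate 1 or w.tEDS1 replicate 3 (adjusted p up to 0.106), and that for RPP1 without w.tEDS1 replicate 1 or 3 (up to 0.108).

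Other genes of the block were higher. FAR8, a fatty acid reductase, had 0.336, 0.535 and 0.646 CPM in Col-0 and 35.3, 49.8 and 29.6 CPM in w.tEDS1 (log2 fold change 6.24, SE 0.29, adjusted p = 2.63e-06). AT3G44070, a glycosyl hydrolase of family 35, had 2 reads over the Col-0 libraries and 1034 in w.tEDS1, a ratio of 513 with a counting interval of 142 to 4238. The receptor-like kinase AT3G47580 had 5.75, 6.81 and 4.57 CPM against 23.2, 22.1 and 21.4 CPM (log2 fold change 1.96, SE 0.15, adjusted p = 7.8e-05). All 3 genes were clearly separated between the groups and were called in each of the 16 alternatives. GSA2, an enzyme of chlorophyll precursor synthesis, rose from 49.6, 48.9 and 70.6 CPM to 150.0, 161 and 146 CPM (log2 fold change 1.43, SE 0.15, adjusted p = 0.000571).

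Of the 8 largest decreases further than 2 Mb from EDS1, among called genes of at least 5 CPM over the 6 libraries, 6 lay on chromosome 3 in the stretch before the block. AT3G42806, annotated as a pseudogene, had 714 reads over Col-0 and 0 in w.tEDS1, at least 239-fold lower. AT3G43740, a leucine-rich repeat protein, had 1362 reads against 1 (ratio 1374, counting interval 246 to 54307). AT3G43690, also annotated as a pseudogene, had 818 against 2 (ratio 413, interval 114 to 3413). QQS, an orphan gene that affects starch content and is named after its values were seen, had 501 against 1 (ratio 505, interval 90.3 to 20001). These 4 genes were thus detected in every Col-0 library and nearly absent from w.tEDS1. AT3G43270, related to pectin methylesterases and invertase inhibitors, had 804, 406 and 767 CPM in Col-0 and 61.3, 60.4 and 76.5 CPM in w.tEDS1 (log2 fold change −3.32, SE 0.27, adjusted p = 0.000124). TES, a kinesin, had 23.0, 32.9 and 13.2 CPM against 2.61, 1.87 and 3.51 CPM. The coiled-coil protein gene AT3G43250 had 55.9, 112 and 44.2 CPM against 8.06, 4.96 and 7.82 CPM. ERD5, a proline dehydrogenase also named after its values were seen, had 90.4, 108 and 103 CPM against 33.1, 41.0 and 42.4 CPM. For all of these the w.tEDS1 libraries lay below Col-0. The call for AT3G43250 was lost without Col-0 replicate 1 or any w.tEDS1 library (adjusted p up to 0.124), and the others named here held.

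Away from chromosome 3, 2 called genes had 0 reads in all 3 libraries of a group. They are named after their values were seen, as is AT2G24692, which had 1 read over the Col-0 libraries and 35 in w.tEDS1. Its ratio was 34.7, with a counting interval of 5.83 to 1409 (adjusted p = 0.0439). AT5G20750, uncharacterized, was at 0 in all 3 Col-0 libraries and at 7.58, 7.05 and 7.49 CPM in w.tEDS1, at least 158-fold higher (adjusted p = 5.29e-06). AT5G34871, a non-coding RNA, had 3.15, 2.92 and 2.48 CPM in Col-0 and 0 in every w.tEDS1 library, at least 61.8-fold lower (adjusted p = 0.0130). The mean of AT5G20750 was 6.68 CPM in eds1-2 and 4.2 CPM in R493A. AT5G34871 had a mean of 0 CPM in eds1-2 and 0.0458 CPM in R493A.

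Outside the block, 83 genes were higher, with a median log2 fold change of 0.83. Among them were 9 genes of 3 lists for the reading of the plastid genome. Plastid genes are read by a bacterial-type RNA polymerase, which takes nuclear-encoded sigma factors for promoter choice and a set of associated proteins for its activity, and its transcripts are matured and translated by further nuclear-encoded proteins. The lists for these proteins were drawn up after the values were seen, so their counts describe the called genes and do not support them. Of 6 sigma factors 2 were called, both higher, and the median was 0.71. Of 13 polymerase-associated proteins 4 were higher, with a median of 0.68, and of 9 plastid translation factors 4 were higher, with a median of 0.50. The share called higher over all tested genes was 0.506%, and nothing is read from the lists' larger shares. No gene of the 3 lists was called lower. Against Col-0 replicate 3 alone the medians were 0.60, 0.56 and 0.41. They were 0.71, 0.60 and 0.50 for eds1-2 and 0.58, 0.51 and 0.37 for R493A against Col-0, comparisons that share the Col-0 libraries. For w.tEDS1 against eds1-2 they were 0.04, 0.07 and 0.07, so the shifts from Col-0 were not particular to w.tEDS1.

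SIG2, the sigma factor that serves plastid tRNA genes among others, had 53.9, 57.7 and 57.3 CPM in Col-0 and 80.6, 82.0 and 84.5 CPM in w.tEDS1. The libraries of each group were tightly grouped and did not overlap, for a log2 fold change of 0.55 (SE 0.09, adjusted p = 0.0140). SIG6, which acts early in chloroplast development, had 17.5, 19.8 and 21.5 CPM against 37.9, 32.7 and 43.2 CPM (log2 fold change 0.96, SE 0.18, adjusted p = 0.0329). SIG1 was not called (log2 fold change 0.99, adjusted p = 0.0903). SIG5, a stress- and light-responsive sigma factor, overlapped between the groups (log2 fold change 0.34).

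Among the polymerase-associated proteins, PTAC12, needed for the polymerase and for phytochrome signalling, rose from 9.70, 10.7 and 11.6 CPM to 20.9, 17.59 and 19.6 CPM (log2 fold change 0.86, SE 0.15, adjusted p = 0.0264). FLN2, a fructokinase-like subunit, rose from 8.23, 7.64 and 10.1 CPM to 19.1, 14.3 and 18.0 CPM (log2 fold change 0.98, SE 0.17, adjusted p = 0.0242). PTAC14 rose from 10.7, 12.9 and 13.1 CPM to 21.5, 18.8 and 21.9 CPM. In each of these genes all w.tEDS1 libraries were above all Col-0 libraries, as in every called gene that was higher. PTAC10 was the fourth called member (log2 fold change 1.00, adjusted p = 0.0106), and since it lies 0.209 Mb from EDS1 it belongs to the chromosome 3 block. FSD2, a plastid superoxide dismutase, and PTAC7 were not called, with log2 fold changes of −0.04 and 0.16.

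For plastid translation, FUG1, the initiation factor IF2 of the chloroplast, rose from 161, 205 and 171 CPM to 272, 271 and 311 CPM (log2 fold change 0.67, SE 0.12, adjusted p = 0.0308). EMB2726, an elongation factor Ts, rose from 146, 135 and 142 CPM to 223, 218 and 268 CPM, and AT2G24060, an initiation factor IF3, from 14.7, 14.5 and 18.2 CPM to 25.2, 29.1 and 32.0 CPM. HCF109, a peptide release factor, was higher by 0.50 on the log2 scale (adjusted p = 0.0449). None of the 4 overlapped between the groups, as was so for every called gene. For RNA maturation, emb1138, the DEAD-box helicase RH3 of plastid intron splicing, rose from 93.2, 91.8 and 79.9 CPM to 179.5, 137 and 220.0 CPM (log2 fold change 1.02, SE 0.17, adjusted p = 0.0176). HCF152, a pentatricopeptide protein that processes psbB-operon transcripts, had 8.90, 8.86 and 8.75 CPM against 16.6, 18.6 and 17.7 CPM. RIF10, the plastid polynucleotide phosphorylase, the splicing factors CFM2 and CFM3A, the RNA-binding RHON1 and the organellar tRNA synthetases EMB1030 and EMB2761 were called higher as well, by 0.44 to 0.85 on the log2 scale. Of 230 tested pentatricopeptide genes, most of which act in organelles, 4 were called higher (1.74%), against 0.506% of all tested genes. This list too was drawn up after the values were seen, and nothing is read from its share. In it 193 genes had a positive value, and the median was 0.32, or 0.24 against Col-0 replicate 3 alone.

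The calls for these plastid-protein genes depended on single libraries. This was counted by edgeR for 14 called genes picked from plastid transcription, translation and RNA maturation. The called CFM2, CFM3A, EMB1030 and EMB2761 were not among the 14. Of the 14, 14 were called without Col-0 replicate 3, 9 without w.tEDS1 replicate 2 and 5 without Col-0 replicate 2. Without w.tEDS1 replicate 1 3 were called, without Col-0 replicate 1 1, and without w.tEDS1 replicate 3 0. In the last case 14 had an unadjusted p under 0.05. The highest adjusted p of a gene over these 6 cases was between 0.0839 for PTAC10 and 0.252 for RHON1.

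**Figure D3:**
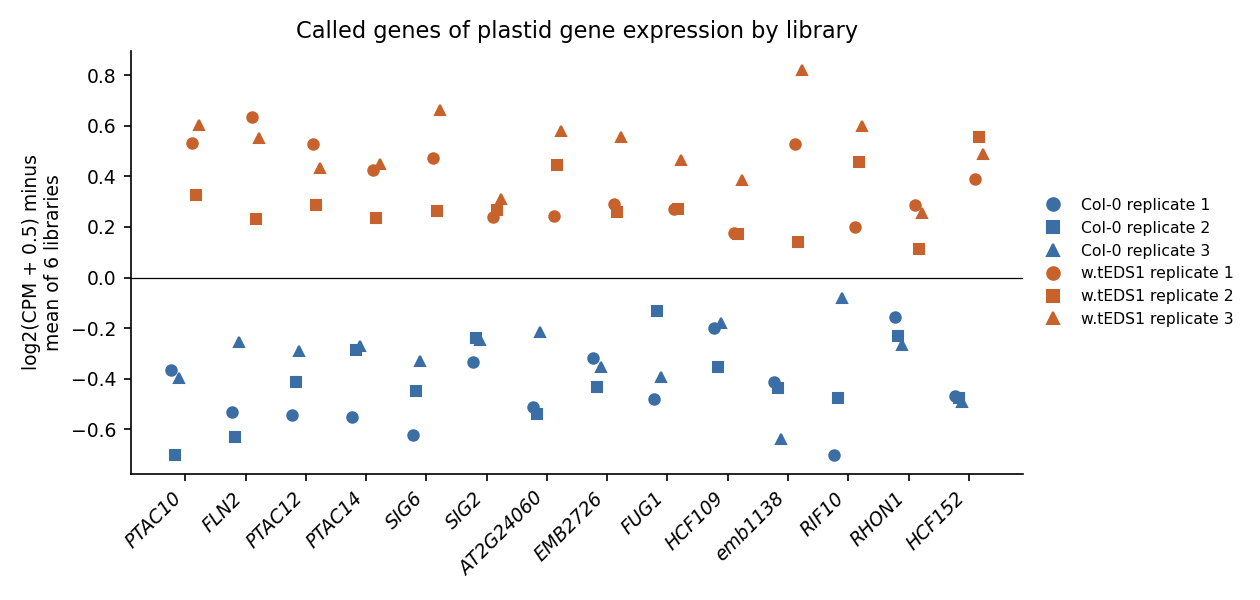
Level of 14 called nuclear genes for plastid gene expression in each library of Col-0 and w.tEDS1, as log2(CPM + 0.5) minus the mean of the 6 libraries; points are libraries. In each gene the 3 w.tEDS1 libraries lie above the 3 Col-0 libraries, as they do in every called gene that was higher.

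The 8 largest increases outside the block, among called genes of at least 5 CPM over the 6 libraries, included genes of light responses and electron flow. PKS2, a phytochrome-binding protein of phototropism, rose from 2.86, 2.29 and 4.47 CPM to 9.65, 6.62 and 13.4 CPM (log2 fold change 1.63, SE 0.31, adjusted p = 0.0366). The subtilase AT5G45650 rose from 7.39, 5.55 and 6.31 CPM to 18.3, 17.7 and 22.5 CPM, and the uncharacterized AT5G56850 from 6.89, 8.52 and 8.60 CPM to 20.3, 21.6 and 27.3 CPM. In all of these the groups were apart, as in every called gene. NDF5, needed for the chloroplast NDH complex of cyclic electron flow, rose from 4.96, 4.53 and 4.97 CPM to 11.0, 10.3 and 15.4 CPM. AT3G22104, of the NPH3 family, rose from 5.33, 3.89 and 7.45 CPM to 13.8, 12.3 and 15.7 CPM. EMB1270, a pentatricopeptide protein, rose from 3.23, 4.23 and 4.62 CPM to 7.82, 9.45 and 11.7 CPM, and AT5G11420, of unknown function, from 9.24, 11.3 and 16.2 CPM to 22.8, 22.9 and 36.1 CPM. With emb1138 these 8 genes had log2 fold changes from 1.02 to 1.63. All 8 calls were lost without Col-0 replicate 1, w.tEDS1 replicate 1 or w.tEDS1 replicate 3, with adjusted p up to 0.244; 7 were lost without Col-0 replicate 2 and 4 without w.tEDS1 replicate 2. Outside the block the count of higher calls was 1196 without Col-0 replicate 3. It was 5, 17, 9 and 3 without Col-0 replicate 1, Col-0 replicate 2, w.tEDS1 replicate 1 and w.tEDS1 replicate 3. The case of w.tEDS1 replicate 2 is not listed.

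Photosynthesis genes themselves had smaller, positive differences. Of 28 tested light-harvesting and photosystem genes 0 were called by edgeR, all 28 had a positive log2 fold change, 14 had an unadjusted p under 0.05 and DESeq2 called 4. The median was 0.37, or 0.19 against Col-0 replicate 3 alone. It was 0.31 for eds1-2 and 0.20 for R493A against Col-0, and 0.03 for w.tEDS1 against eds1-2. LHCB2.1, an antenna protein of photosystem II, had 1038, 1102 and 1531 CPM in Col-0 and 1744, 1938 and 2042 CPM in w.tEDS1 (log2 fold change 0.64, adjusted p = 0.107). Of 16 carbon fixation genes RBCS1B, a small subunit of Rubisco, was called, with 228, 249 and 301 CPM in Col-0 and 404, 445 and 467 CPM in w.tEDS1 (log2 fold change 0.76, SE 0.13, adjusted p = 0.0258). The groups were apart for RBCS1B, but its call was lost without any library other than Col-0 replicate 3 (adjusted p up to 0.154). All 16 genes were positive, with a median of 0.33 that was 0.09 against Col-0 replicate 3 alone. The median was 0.36 for eds1-2 and 0.29 for R493A against Col-0, and 0.002 for w.tEDS1 against eds1-2. Assembly factors were among the called genes, named after their values were seen. PAM68, a photosystem II assembly factor, rose from 4.07, 4.53 and 5.17 CPM to 9.12, 8.45 and 8.61 CPM. AT5G28500, similar to a Rubisco accumulation factor, rose from 36.2, 29.8 and 37.4 CPM to 64.9, 61.3 and 79.6 CPM and remained called whichever single library was left out.

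Aliphatic glucosinolates, the methionine-derived defence compounds of Brassicaceae, are made under the control of MYB28 and MYB29. Of 16 tested genes of the pathway 0 were called by edgeR, 9 had an unadjusted p under 0.05 and DESeq2 called 6, all higher. All 16 had a positive log2 fold change, with a median of 0.98, and in 10 the w.tEDS1 libraries lay above all Col-0 libraries, which was so for 12.1% of all tested genes. MYB28, with the largest value of the 16, had 3.95, 3.41 and 7.01 CPM in Col-0 and 12.3, 14.2 and 13.6 CPM in w.tEDS1 (log2 fold change 1.48, SE 0.45, adjusted p = 0.101). MYB29 had 5.29, 5.35 and 5.02 CPM against 16.99, 8.62 and 14.5 CPM (log2 fold change 1.35, SE 0.29, adjusted p = 0.0535). Both regulators were without overlap and missed the threshold. Of the enzymes, CYP83A1, which oxidises aldoximes, had 52.4, 30.6 and 46.3 CPM against 74.7, 95.2 and 133 CPM (adjusted p = 0.0947), and MAM1, which elongates the methionine chain, 60.1, 38.7 and 59.6 CPM against 68.8, 118 and 152 CPM (adjusted p = 0.124). CYP79F1, which forms the aldoximes, overlapped, with 41.3 CPM in Col-0 replicate 3 and 41.0 CPM in w.tEDS1 replicate 1. The median difference was 0.60 against Col-0 replicate 3 alone. It was 0.45 for eds1-2 and 0.66 for R493A against Col-0, comparisons that share the Col-0 libraries, and 0.39 for w.tEDS1 against eds1-2.

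**Figure D4:**
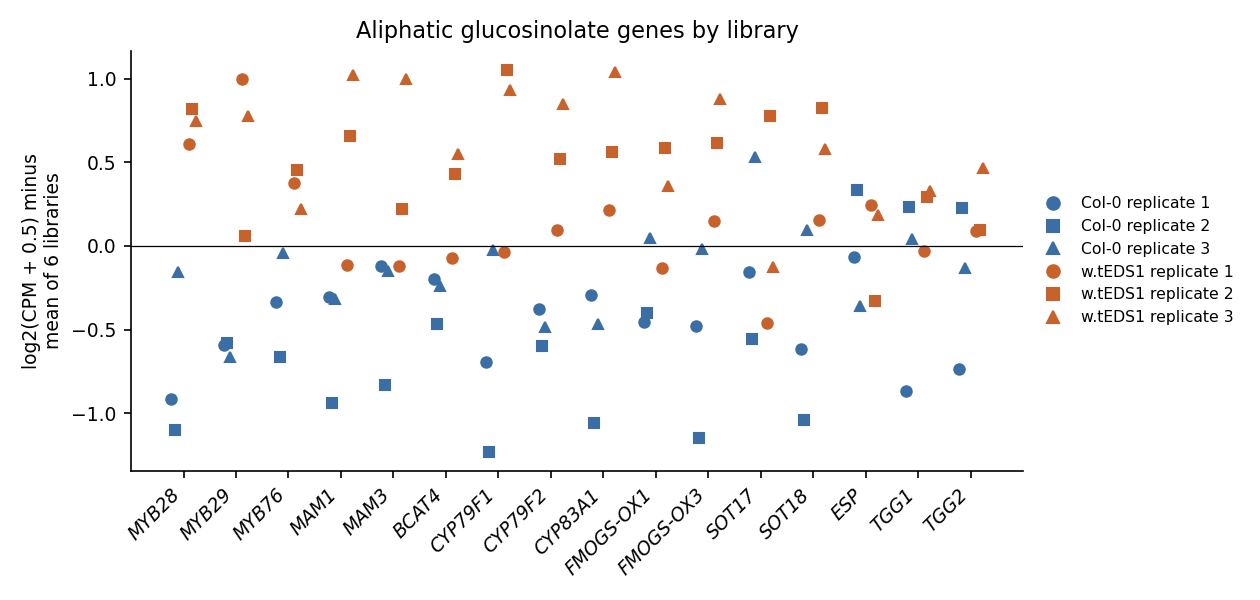
Level of 16 genes for aliphatic glucosinolates in each library of Col-0 and w.tEDS1, as log2(CPM + 0.5) minus the mean of the 6 libraries; points are libraries. MYB28 and MYB29 lie higher in all 3 w.tEDS1 libraries, and SOT17 and ESP, with log2 fold changes of 0.15 and 0.06, overlap.

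Further than 2 Mb from EDS1 53 genes were lower, with a median log2 fold change of −1.07. Of these, 10 lay on chromosome 3 between 7 and 2 Mb before EDS1, in the stretch next to the block. WRKY6, a transcription factor induced in senescing leaves, had 219, 201 and 125 CPM in Col-0 and 75.7, 86.0 and 70.7 CPM in w.tEDS1. The w.tEDS1 libraries were close to one another and below all Col-0 libraries, for a log2 fold change of −1.23 (SE 0.21, adjusted p = 0.0204) that was −0.68 against Col-0 replicate 3 alone. It was the 1 called member of 13 senescence and nitrogen-recycling genes, of which all 13 were negative, with a median of −1.18. That median was −0.30 against Col-0 replicate 3 alone, and DESeq2 called 7 of the 13 lower. The median was −0.76 for eds1-2 and −1.16 for R493A against Col-0, and −0.19 for w.tEDS1 against eds1-2. ORE1, a NAC factor that drives senescence, had the most negative value of the 13. It had 50.02, 73.0 and 22.9 CPM in Col-0 and 17.5, 9.06 and 8.99 CPM in w.tEDS1 (log2 fold change −2.04, adjusted p = 0.0672). Its groups were apart, with Col-0 replicate 3 nearest to w.tEDS1. CYP710A1, a sterol desaturase, fell from 16.8, 16.9 and 6.11 CPM to 3.09, 3.00 and 3.46 CPM (log2 fold change −2.06, SE 0.35, adjusted p = 0.0241), a difference of −0.93 against Col-0 replicate 3 alone. WVD2, a microtubule-associated protein, fell from 10.7, 12.4 and 7.11 CPM to 3.14, 3.05 and 1.73 CPM. The call for WRKY6 was lost without Col-0 replicate 1 or 2 or w.tEDS1 replicate 1 or 3 (adjusted p up to 0.145). Those for CYP710A1 and WVD2 were lost without any library other than Col-0 replicate 3 (up to 0.137 and 0.227).

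Further lower genes are named after their values were seen. SAG24, a senescence-associated gene for a ribosomal protein, fell from 831, 1019.5 and 792 CPM to 564, 508 and 425 CPM (log2 fold change −0.82, adjusted p = 0.0377). GSTU19, a glutathione transferase of the tau class, fell from 1227, 1112 and 1128 CPM to 744, 678 and 589.9 CPM. AT2G17500, an auxin efflux carrier family gene, fell from 196, 181 and 158 CPM to 92.2, 80.9 and 66.6 CPM and was called whichever library was left out. In all 3 genes the groups were apart. Of sulfate metabolism, SULTR1;2, a root-type sulfate transporter, and SERAT2;1, a serine acetyltransferase of cysteine synthesis, were lower by log2 fold changes of −1.18 and −1.09. Of 56 tested WRKY factors WRKY6 and WRKY8 were called lower (3.57%), against 0.581% of all tested genes. The list was drawn up after the values were seen, and nothing is read from its share. In it 52 genes had a negative value, and the median was −0.51, which was 0.11 against Col-0 replicate 3 alone. The median was −0.51 for eds1-2 and −0.57 for R493A against Col-0, and −0.04 for w.tEDS1 against eds1-2.

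Sequences just before the start of called genes are shown to make plain what was counted in a search for short regulatory motifs. The window was 200 bases before the RefSeq gene start, read from the TAIR10.1 assembly and written 5′ to 3′ on the gene's strand. The motifs searched, on both strands, were the W-box core TTGAC that WRKY factors bind, the G-box CACGTG, the site CCAATC bound by GLK factors and the light-related I-box GATAAG; matches of different motifs may overlap at their ends. The first 3 are nuclear genes for plastid proteins that rose, and the last 2 are genes that fell; all 5 were picked as windows that hold a motif, and capitals mark motif matches. The windows lie on chromosome 1 at 1:2703095-2703294 (SIG2, plus strand), 1:26015824-26016023 (FLN2, plus strand), 1:5884807-5885006 (FUG1, plus strand), 1:23019495-23019694 (WRKY6, minus strand) and 1:24838890-24839089 (SAG24, plus strand).
SIG2: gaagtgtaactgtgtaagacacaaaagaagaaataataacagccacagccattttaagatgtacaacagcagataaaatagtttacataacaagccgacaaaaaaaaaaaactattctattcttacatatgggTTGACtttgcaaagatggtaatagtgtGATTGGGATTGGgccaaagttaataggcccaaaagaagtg
FLN2: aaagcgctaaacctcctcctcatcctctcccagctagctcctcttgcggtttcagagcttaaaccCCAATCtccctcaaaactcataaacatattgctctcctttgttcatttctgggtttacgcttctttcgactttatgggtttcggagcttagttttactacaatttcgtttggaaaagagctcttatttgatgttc
FUG1: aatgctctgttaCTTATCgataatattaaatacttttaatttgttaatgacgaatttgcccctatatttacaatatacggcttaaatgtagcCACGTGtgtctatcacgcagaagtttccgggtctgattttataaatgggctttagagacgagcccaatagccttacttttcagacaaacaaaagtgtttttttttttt
WRKY6: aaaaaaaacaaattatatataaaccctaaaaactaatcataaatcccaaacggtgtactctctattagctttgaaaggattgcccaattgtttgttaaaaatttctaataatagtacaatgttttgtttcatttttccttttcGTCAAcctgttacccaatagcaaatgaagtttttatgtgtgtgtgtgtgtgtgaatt
SAG24: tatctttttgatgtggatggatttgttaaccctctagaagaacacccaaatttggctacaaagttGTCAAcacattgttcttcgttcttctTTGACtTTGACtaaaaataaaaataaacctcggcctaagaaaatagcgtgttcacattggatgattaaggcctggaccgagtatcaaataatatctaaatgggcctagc

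SIG2 held 2 GLK sites and a W-box core, FLN2 a GLK site, and FUG1 an I-box and a G-box. WRKY6 held a W-box core and SAG24 held 3. Of the 14 called genes in the plot of plastid gene expression 8 held at least 1 of the motifs and 6 held none, among them SIG6, PTAC12, PTAC14 and HCF152. Of the 83 higher genes outside the block 14 held a GLK site (16.9%), against 8.77% of 18644 windows of tested genes, and 14 held an I-box (16.9%), against 10.1%. The W-box core was in 27 of them (32.5%) and the G-box in 8 (9.64%), against 6.65% of all windows for the G-box. Of the 53 lower genes 31 held a W-box core (58.5%), against 39.1% of all windows, while 5 held a GLK site (9.43%), 6 an I-box (11.3%) and 2 a G-box (3.77%). These shares were not tested, and a match of letters is not a binding site.

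Immune and stress lists other than salicylic acid were mostly negative without calls. All 24 tested genes of pattern-triggered immunity were negative, with a median of −0.57 and 0 called by edgeR; 11 had an unadjusted p under 0.05 and DESeq2 called 4. The medians of that list in the libraries were 0.31, 0.87 and −0.35 in Col-0 and −0.19, −0.38 and −0.30 in w.tEDS1, so that the groups overlapped. Against Col-0 replicate 3 alone the median difference was 0.10. It was −0.68 for eds1-2 and −0.70 for R493A against Col-0, which share the Col-0 libraries, and −0.02 for w.tEDS1 against eds1-2. Medians were −0.55 for 18 camalexin and indole glucosinolate genes, −0.41 for 30 jasmonate genes, −0.72 for 14 ethylene genes and −0.80 for 12 heat shock genes, with 0 called by edgeR in each of these lists and 5, 9, 4 and 6 genes at an unadjusted p under 0.05. DESeq2 called 3, 4, 2 and 1 of them. Over all tested genes 4259 of 18770 had an unadjusted p under 0.05 by edgeR. DESeq2 also called many more genes over all than edgeR did, as given in the closing section, so nothing is read from these counts. Against Col-0 replicate 3 alone these medians were −0.26, −0.12, 0.00 and −0.43. Of 16 calcium sensors and kinases CML41 was the called gene, and of 22 receptor-like kinases of the CRK and WAK families CRK4 was, both in the chromosome 3 block.

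**Figure D5:**
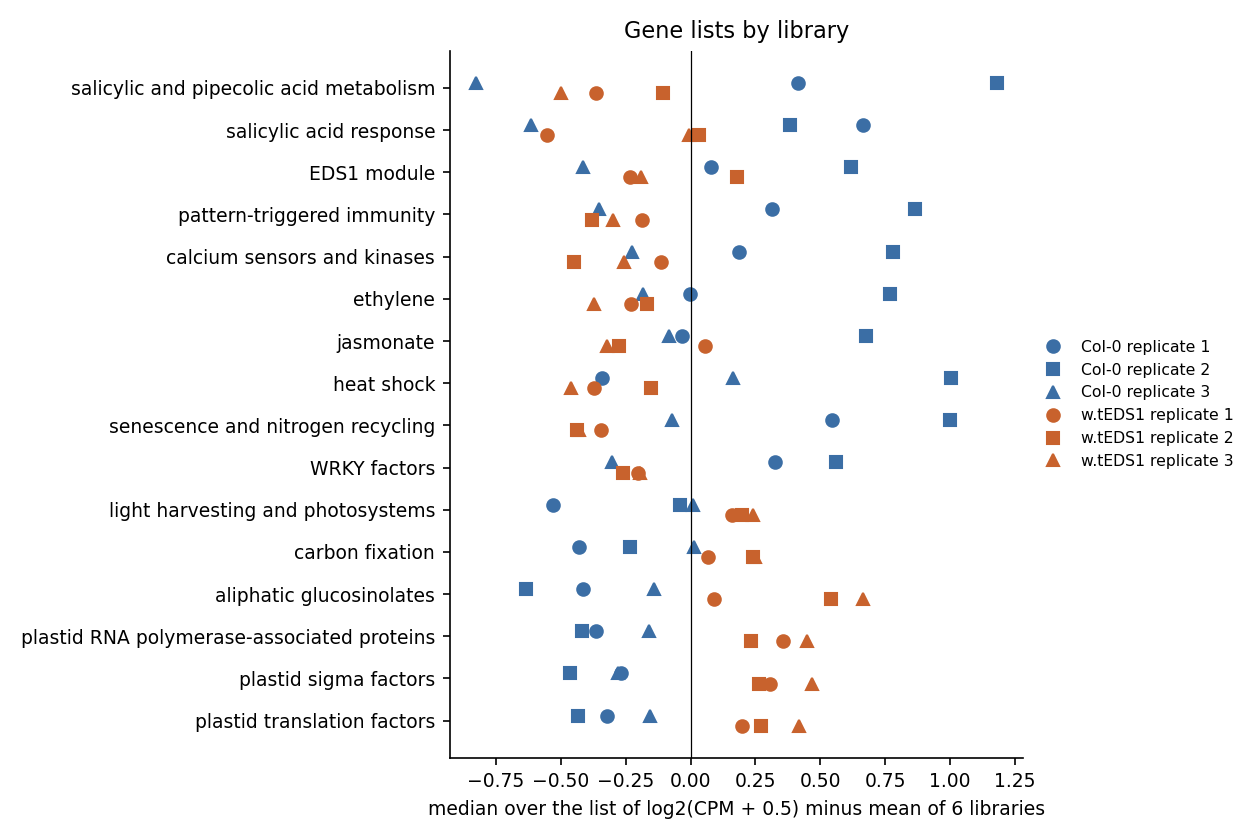
Median over each gene list of log2(CPM + 0.5) minus the mean of the 6 libraries, in each library of Col-0 and w.tEDS1; points are libraries. In the salicylic and pipecolic acid metabolism list the Col-0 libraries reach from −0.83 to 1.18 around the w.tEDS1 libraries, while in the plastid sigma factor list, drawn up after values were seen, the groups are apart.

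Markers of single leaf cell types gave 0 calls by edgeR among 8 guard cell, 6 phloem, 6 epidermis, 7 dividing cell and 3 root markers, with 1, 0, 0, 0 and 0 of them at an unadjusted p under 0.05. The summed level of the guard cell markers was 657 to 1007 CPM in Col-0 and 671 to 881 CPM in w.tEDS1, and that of the phloem markers 659 to 725 and 672 to 817 CPM. The dividing cell markers summed to 2.86, 4.53 and 8.15 CPM in Col-0 and 5.41, 9.10 and 7.49 CPM in w.tEDS1, which overlapped. In libraries of whole leaves a change in the number of cells of a type and a change in RNA per cell cannot be told apart.

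Most of the called genes differed little between w.tEDS1 and eds1-2 in the direct comparison, which shares the w.tEDS1 libraries with the comparison to Col-0. The 95 higher genes had a median log2 difference of 0.10 between w.tEDS1 and eds1-2, and the 109 lower genes one of −0.08. The difference was under 0.5 on the log2 scale for 178 of the 204. The share of all tested genes under 0.5 was not counted, so nothing particular to the called genes is read from this. An unadjusted p under 0.05 by edgeR in the direct comparison was found for 17 of the 204 and for 499 of all 18770. EDS1 was called in the direct comparison (log2 difference 5.19, adjusted p = 0.00185). HR4 had means of 1.63 CPM in w.tEDS1 and 0.641 CPM in eds1-2, FAR8 means of 38.2 and 49.5 CPM, and SIG2 means of 82.4 and 78.4 CPM. A p that misses the threshold does not show that these levels are equal, and the lane of Col-0 replicates 1 and 2 held no library of any other genotype. For the 83 higher genes outside the block the median log2 difference of w.tEDS1 was 0.68 from Col-0 replicate 3 and 0.88 from replicates 1 and 2, and for the 53 lower genes −0.76 and −1.16. For the 68 genes of the block it was −1.05 and −1.41.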

How the data were processed

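Poly(A) RNA of Arabidopsis leaves was purified with an RNeasy kit and turned into libraries by an unstranded kit, TruSeq v2, per the labels' protocols. The authors deposited whole-number read counts per gene for 12 libraries; the submitters' processing notes name TAIR 10, TopHat 2, HTSeq and limma without roles or settings. Reads of overlapping and antisense genes therefore cannot be told apart. The summary entries that name no gene, 9.69% to 17.4% of the 6 libraries compared, were left out.

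Groups come from the labels. In R 4.3.3, edgeR 4.0.16 kept genes by filterByExpr, scaled libraries by TMM and fitted glmQLFit to all 12 libraries with genotype alone in the design; two-sided glmQLFTest p-values got Benjamini-Hochberg adjustment over 18770 genes. Fold changes use a prior count of 0.125, and levels are TMM-scaled CPM. DESeq2 1.42.0 and limma 3.58.1 served as alternatives. The fitting step was tested on simulated data. Symbols and coordinates come from RefSeq on TAIR10.1, which matched 31912 of 32678 identifiers.

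Named genes are EDS1, EDS1B, PAD4, ICS1, FMO1, PR1 and WRKY70; then, of called genes of at least 5 CPM whose groups do not overlap, the 8 largest changes each way outside 2 Mb of EDS1 and 5 each way within it; then up to 3 called members of each of 25 lists. Comparisons, members and lists were chosen with earlier results of these data known, and the lists of plastid, pentatricopeptide and WRKY genes after their values were seen. The mutant and R493A lines entered the shared estimate of spread and are otherwise described only where they bear on w.tEDS1.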

Additional observations from a re-analysis of the deposited data

How the results depend on the processing

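The number of genes called in w.tEDS1 against Col-0, in total and then within and outside 2 Mb of EDS1, was 204, 68 and 136. It was 1741, 145 and 1596 with DESeq2, 2879, 179 and 2700 with voom quality weights, 26, 18 and 8 with the lane as a covariate, 39, 29 and 10 with lane 7 alone, and 39, 26 and 13 with the 6 libraries alone. Requiring a log2 change of at least 1 left 109 in total and 52 outside, and a window of 1 Mb held 42. With 1 library left out the ranges were 38 to 2701, 27 to 172 and 11 to 2529. DESeq2 size factors, no filter, limma-voom and the main run alone kept all 3 counts within 1.5 times. Of the 204 genes, 21 were called in all 16 settings. The counts of list genes called by DESeq2 are to be read against its 1741 calls among the 18770 tested genes.

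Same-numbered Col-0 and w.tEDS1 libraries deviated with correlations of 0.0653, −0.285 and −0.0361. Differently numbered ones reached 0.365 and −0.399, so these values cannot show whether the numbers pair the libraries. With the replicate block 87 genes were called, 40 of them outside, and with the block in the 6 libraries alone, chosen after seeing the data, 13, 8 and 5. Against eds1-2, where 14 were called, the block gave 6 with either set of libraries. The other counts there were 84 with DESeq2, 6 with limma-voom, 92 with quality weights, 27 with the 2 groups alone and 1 to 17 with 1 library left out. The lane covariate and the main run alone gave 0 by edgeR, with 660 and 608 genes at an unadjusted p under 0.05.

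The log2 fold change turned positive with the lane as a covariate and with lane 7 alone for EDS1B (0.70 and 0.70), PAD4 (1.08 and 1.09), ICS1 (1.42 and 1.43), FMO1 (0.94 and 0.94) and WRKY70 (0.21 and 0.22). With 1 library left out it ranged from −1.60 to 0.60 for PAD4 and from −1.76 to 0.66 for ICS1, positive without Col-0 replicate 2 in both. PR1 turned negative without the filter (−0.00046), with quality weights (−0.99), with the replicate block (−0.98) and without Col-0 replicate 2 (−0.41), Col-0 replicate 3 (−0.56) or w.tEDS1 replicate 3 (−4.16, with 2.58 the highest of such values). None of these turned values was called, and the cause was not tested. EDS1B was called lower with DESeq2, with quality weights and without Col-0 replicate 3, and FMO1 without Col-0 replicate 3. EDS1 was not called with the lane as a covariate (adjusted p = 0.322), and its adjusted p by edgeR without 1 library ranged from 0.00360 to 0.150.

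With 3 libraries a group, a wide Col-0 group and 2 Col-0 libraries on a lane of their own, lane and genotype can be told apart only through Col-0 replicate 3.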
